A study of Saccharomyces cerevisiae with 8 samples.

Results

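The forward human HPRT1 locus (synHPRT1) was set against the same locus with its base order reversed (synHPRT1R), each carried by budding yeast on a yeast artificial chromosome (YAC), an engineered construct that yeast maintains beside its own chromosomes. The comparison took 4 of the 8 libraries of the study, 2 for each sequence, and they were chosen by their labels alone. Both groups were BY4741, a MATa laboratory strain that lacks working HIS3, LEU2, MET17 and URA3 genes, and both were grown in SC-Leu, synthetic medium without leucine, which selects for the YAC. Cultures grew at 30 °C, were diluted to an OD of 0.1 and were collected after 6 h at an OD near 0.6. The other 4 libraries came from strains with the sequence integrated in chromosome XI and grown in YPD, a rich medium, so that location and medium cannot be told apart there. Those libraries serve below only as a second reading of the same contrast. The labels do not say whether a strain was 1 clone or whether its 2 libraries came from separate cultures, and the spread that p-values refer to is therefore that between libraries, possibly technical.

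Capped 5′ ends of RNA were read by CAGE, cap analysis of gene expression, a method in which sequenced tags pile up at transcription starts. RNA polymerase II in yeast starts transcription at the edges of nucleosome-depleted DNA, often in both directions, with or without a TATA element. Such DNA arises at AT-rich stretches and at sites bound by sequence-specific activators, and human DNA has not been under selection to keep or to avoid these features in yeast. A reversed sequence keeps the base composition and the runs of A and T of the forward one, at mirrored positions, and loses its directional sequence motifs and its codons.

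The deposited lists name intervals, called peaks, in which tags exceeded the background on 1 strand, with a fold (the authors' ratio of summit signal to local background) that belongs to the peak. The 2 synHPRT1 libraries listed 3041 and 2995 peaks on native chromosomes, against 3006 and 3092 in the 2 synHPRT1R libraries. The lists carry no read totals, which leaves the depth unknown as a count. The genome-wide background in tags at a position was 47.9 and 43.2 on the plus strand in synHPRT1 libraries, against 52.7 and 41.0 in synHPRT1R libraries. On the minus strand it was 86.2 and 78.0 in synHPRT1 libraries, against 94.8 and 67.0 in synHPRT1R libraries. The groups overlapped on both strands, and the background was higher on the minus strand in all 4 libraries. With 2 against 2 libraries the exact permutation test cannot go below p = 0.333, so no difference below could pass a threshold of 0.05, and the spread between libraries is given beside each. Intervals are on numbers of peaks or regions, treat these as independent and cover counting error only. No molecular identifiers are mentioned, so a tag may not stand for 1 molecule.

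No strain marker had a start peak in 2 of 2 libraries of one group and 0 of 2 of the other, but levels differed for some. Of 7 genes of mating type a, such as the pheromone genes MFA1 and MFA2, 4 carried a start peak in each of the 4 libraries, and of 4 genes of mating type alpha 0 had one in any. Of 12 meiosis and sporulation genes, 1 had a start peak in 1 library. LEU2 had a start peak with a fold of 29.4 and 26.0 in synHPRT1 libraries, against 29.6 and 16.6 in synHPRT1R libraries. These ranges overlapped, and LEU2 had no start peak in any of the 4 integrated libraries, whose strains carry no YAC and grew with leucine. Whether LEU2 tags came from the native locus, which lacks a working gene in this strain, or from the YAC was not tested. HIS3 also had a start peak in all 4 YAC libraries, with a fold of 6.17 and 19.3 in synHPRT1 libraries, against 5.00 and 6.33 in synHPRT1R libraries, and a start peak does not show that a gene works. MFA1, AGA2 and ADE2 had a lower fold in both synHPRT1 libraries than in either synHPRT1R library, while MFA2, STE6 and TRP1 overlapped. MFA1 had 12.2 and 10.2 in synHPRT1 libraries, against 19.4 and 25.7 in synHPRT1R libraries, and AGA2, of mating agglutination, had 14.4 and 9.53 against 23.1 and 20.6. ADE2, of purine synthesis, had 5.94 and 4.07 in synHPRT1 libraries, against 7.18 and 11.7 in synHPRT1R libraries. Of the overlapping ones, MFA2 had 29.9 and 7.88 in synHPRT1 libraries, against 27.8 and 44.8 in synHPRT1R libraries. In the same order, STE6 had 19.1 and 1.82 against 21.9 and 12.2, and TRP1 2.05 and 4.12 against 1.77 and 4.91.

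Both orientations were transcribed across the whole insert of 100578 bp, at about the same density. The insert held 94 and 92 peaks in synHPRT1 libraries, against 103 and 92 in synHPRT1R libraries, which are 0.935 and 0.915 peaks per kb against 1.02 and 0.915. Native chromosomes held 0.252 and 0.248 peaks per kb in the synHPRT1 libraries, against 0.249 and 0.256 in the synHPRT1R libraries. The insert was thus 3.71 and 3.69 times as dense in peaks as native DNA in synHPRT1 libraries, against 4.11 and 3.57 times in synHPRT1R libraries. The synHPRT1 values lay inside the range of the synHPRT1R values. The mean log2 ratio was 1.89 ± 0.00639 for synHPRT1 and 1.94 ± 0.14 for synHPRT1R (SD, n = 2 each), a difference of -0.0513 (exact two-sided permutation p = 1). Its sign turned to 0.0505 without synHPRT1R replicate 1.

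Peaks lay on both strands in similar number. The plus strand held 55.3% (95% exact Clopper-Pearson interval 44.7% to 65.6%) and 51.1% (40.4% to 61.7%) of insert peaks in synHPRT1 libraries, against 46.6% (36.7% to 56.7%) and 50.0% (39.4% to 60.6%) in synHPRT1R libraries. The 2 synHPRT1 shares were above the 2 synHPRT1R shares, by 4.90 percentage points on average (exact two-sided permutation p = 0.333, n = 2 each, the smallest possible). The difference was 2.79 points without synHPRT1 replicate 1. The native plus share was 54.3% and 55.5% in synHPRT1 libraries, against 53.9% and 55.9% in synHPRT1R libraries. Each insert interval included it, which is a description, since peaks of 1 library are not independent.

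No long part of either insert was silent. The longest stretch without a peak on either strand measured 5285 and 4463 bp in synHPRT1 libraries, against 3645 and 3697 bp in synHPRT1R libraries. Peaks covered 15.5% and 14.9% of insert strand bases in synHPRT1 libraries, against 16.3% and 14.8% in synHPRT1R libraries. These covered shares overlapped between the sequences, while the longest gaps did not. By 10 kb segment, with synHPRT1R mirrored so that facing sequence is compared and with no test, the contrast was widest in segment 10, with 7 and 9 peaks in synHPRT1 libraries against 15 and 14 in synHPRT1R libraries. In segment 1 the mirrored counts were 7 and 8 in synHPRT1 libraries, against 10 and 12 in synHPRT1R libraries. Segment 2 went the other way, with 11 and 12 peaks in synHPRT1 libraries against 6 and 6 in synHPRT1R libraries. No segment was empty in any of the 4 libraries.

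**Figure D1:**
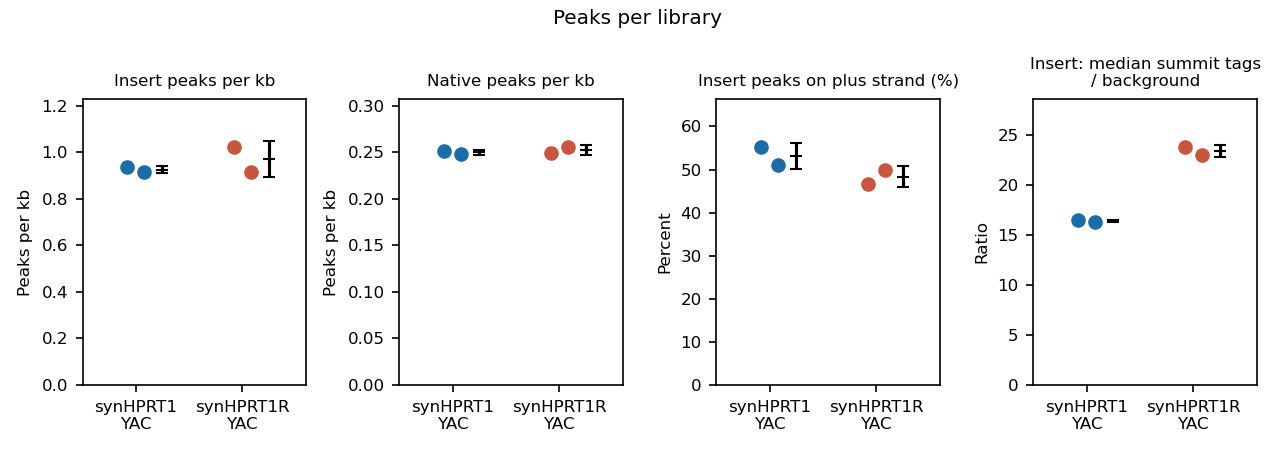
Peaks per kb of insert, peaks per kb of native chromosomes, percent of insert peaks on the plus strand and median summit tags of insert peaks over background, for the 2 synHPRT1 and 2 synHPRT1R YAC libraries (points), with mean and SD (n = 2) as black bars. The densities of the sequences overlap, while median summit tags over background are 16.5 and 16.3 for synHPRT1 against 23.9 and 23.0 for synHPRT1R.

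The median height of listed insert peaks did not overlap between the sequences, while their number did. Peak height was a measure chosen after seeing the data. Summit height in tags was solved from the deposited fold and p and divided by the background of its list. The median insert peak stood 16.5 and 16.3 times above background in synHPRT1 libraries, against 23.9 and 23.0 times in synHPRT1R libraries. The groups did not overlap, and their means were 16.4 ± 0.107 and 23.4 ± 0.606 (SD, n = 2 each; difference -7.00, exact two-sided permutation p = 0.333, the smallest possible). Native peaks had medians of 5.85 and 5.48 in synHPRT1 libraries, against 5.75 and 5.43 in synHPRT1R libraries, and these overlapped.

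The same order appeared in the share of high peaks. Insert peaks at least 10 times above background numbered 55 and 63 in synHPRT1 libraries, against 81 and 78 in synHPRT1R libraries. They were 58.5% and 68.5% of insert peaks in synHPRT1 libraries, against 78.6% and 84.8% in synHPRT1R libraries, with no overlap. Of native peaks, 33.5% and 32.9% were as high in synHPRT1 libraries, against 33.7% and 32.2% in synHPRT1R libraries. The summed summit tags of the insert did overlap: they were 3.37% and 3.09% of all summit tags on insert and native DNA in synHPRT1 libraries, against 3.69% and 3.30% in synHPRT1R libraries. Among listed peaks, median heights of the sequences thus did not overlap, while summed heights did. The lowest listed insert peak had 83 and 68 summit tags in synHPRT1 libraries, against 122 and 116 in synHPRT1R libraries. What part the limit for listing a peak has in the medians was not tested.

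The vector carries the same DNA in both strains, and the median over all its listed peaks differed in the same direction. The median vector peak stood 7.68 and 7.63 times above background in synHPRT1 libraries, against 10.7 and 18.2 times in synHPRT1R libraries. These medians are over differing sets, of 15 and 14 peaks against 15 and 10. At the 7 vector regions found in all 4 libraries, medians overlapped: 44.6 and 13.8 for synHPRT1, against 33.6 and 28.8 for synHPRT1R. Region by region, 2 of these 7 were higher in synHPRT1. Divided by the median over 7 vector regions with a peak in all 4 libraries, the insert median was 0.370 and 1.19 in synHPRT1 libraries, against 0.710 and 0.798 in synHPRT1R libraries. On that scale the groups overlapped and the difference turned to 0.0249 (exact permutation p = 1, n = 2 each). What part the difference at vector peaks has in that of the insert was not tested.

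The deposited fold shows little of the difference in height. The median fold of insert peaks was 5.16 and 5.30 in synHPRT1 libraries, against 5.32 and 5.65 in synHPRT1R libraries. The fold is relative to local background, and that background was above the genome-wide one at 85.1% and 96.7% of insert peaks in synHPRT1 libraries, against 99.0% and 100% in synHPRT1R libraries. Of native peaks, 20.8% and 20.7% had a raised background in synHPRT1 libraries, against 21.1% and 19.8% in synHPRT1R libraries.

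In the integrated strains, which the rule did not use, median insert height ran the other way. It was 6.16 and 6.64 times background in integrated synHPRT1 libraries, against 5.07 and 5.13 times in integrated synHPRT1R libraries, with no overlap. The means were 6.40 ± 0.340 and 5.10 ± 0.0415 (SD, n = 2 each), which differ by 1.31 (exact permutation test, p = 0.333, the smallest possible). Native peaks ran the same way there. Their medians were 5.64 and 5.88 in integrated synHPRT1 libraries, against 5.31 and 5.19 in integrated synHPRT1R libraries, with no overlap (difference 0.509). Set against the YAC contrast, the difference of differences in insert height was -8.31 (exact permutation of sequence labels within each location, 36 arrangements, p = 0.0556, the smallest possible). It is not adjusted for native peaks.

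Each orientation had its own set of start regions that recurred between replicates. Joining overlapping peaks on a strand gave 112 regions on synHPRT1 and 113 on synHPRT1R. A peak in 2 of 2 libraries was found at 71 regions of synHPRT1, 35 on the plus and 36 on the minus strand, against 77 of synHPRT1R, 36 on the plus and 41 on the minus strand. Summits of such a region differed between replicates by a median of 28 bp on synHPRT1, against 24 bp on synHPRT1R. Regions seen in 1 library alone were weak, with a median fold of 2.69 on synHPRT1 and 2.55 on synHPRT1R, against 6.77 and 6.37 for those seen in 2. In the integrated strains of the same sequence, 47 of the 71 synHPRT1 regions (66.2%) also had a peak in 2 of 2 libraries, as did 52 of the 77 synHPRT1R regions (67.5%), including the 10 named regions of each sequence.

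Regions were ranked by the percentile of their fold among native peaks of the same list, that is, within a strand. On synHPRT1 the first 3 lay near the middle of the insert. A plus-strand region at contig positions 56404 to 56745 had a fold of 49.0 and 49.5 and 25343 and 22278 summit tags in the replicates. On the minus strand, 50346 to 50737 had a fold of 46.9 and 47.7 and 30947 and 27203 summit tags. These folds are near the highest of any list, 49.99, so they do not order the regions by strength, and their summit tags stood 349 to 529 times above background. The minus-strand region at 55807 to 56101, just upstream of the first in the opposite direction, had a fold of 32.0 and 34.6.

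The remaining named regions of synHPRT1 were spread over the insert. The minus-strand region at 13158 to 13507 had a fold of 26.8 and 24.1, and a plus-strand region at 76830 to 77082 had 32.8 and 31.3. Others lay at 96310 to 96639, 45133 to 45518, 83018 to 83279 and 6608 to 7236 on the minus strand and at 93062 to 93730 on the plus strand. The rank is taken within a strand's list, so it gives no count of strong regions by strand.

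On synHPRT1R no region came near the ceiling of the fold. A minus-strand region at 82604 to 83032 ranked first by percentile, with a fold of 32.0 and 38.5 and 5760 and 6247 summit tags. The minus-strand region at 20703 to 20959 showed a fold of 30.2 and 29.3 and, with 27931 and 17827 summit tags, the most summit tags of any insert peak in each library. A plus-strand region at 88544 to 88803 had a fold of 32.2 and 36.4 with 17928 and 13216 summit tags. Over the background of its list, which is lower on the plus strand, it stood higher, at 341 and 323 times, against 295 and 266 times for the minus-strand region at 20703 to 20959.

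The order of synHPRT1R regions by fold was thus not their order by tags. The minus-strand region at 52157 to 52452 had a fold of 28.4 and 29.5. The others lay on the minus strand at 68555 to 68914, 96366 to 96617, 38322 to 38617 and 57390 to 58194, and on the plus strand at 50145 to 50410 and 36918 to 37482. The highest insert fold of a library was 49.0 and 49.5 in synHPRT1 libraries, against 32.2 and 38.5 in synHPRT1R libraries, while the highest summit tags were 30947 and 27203 against 27931 and 17827.

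**Figure D2:**
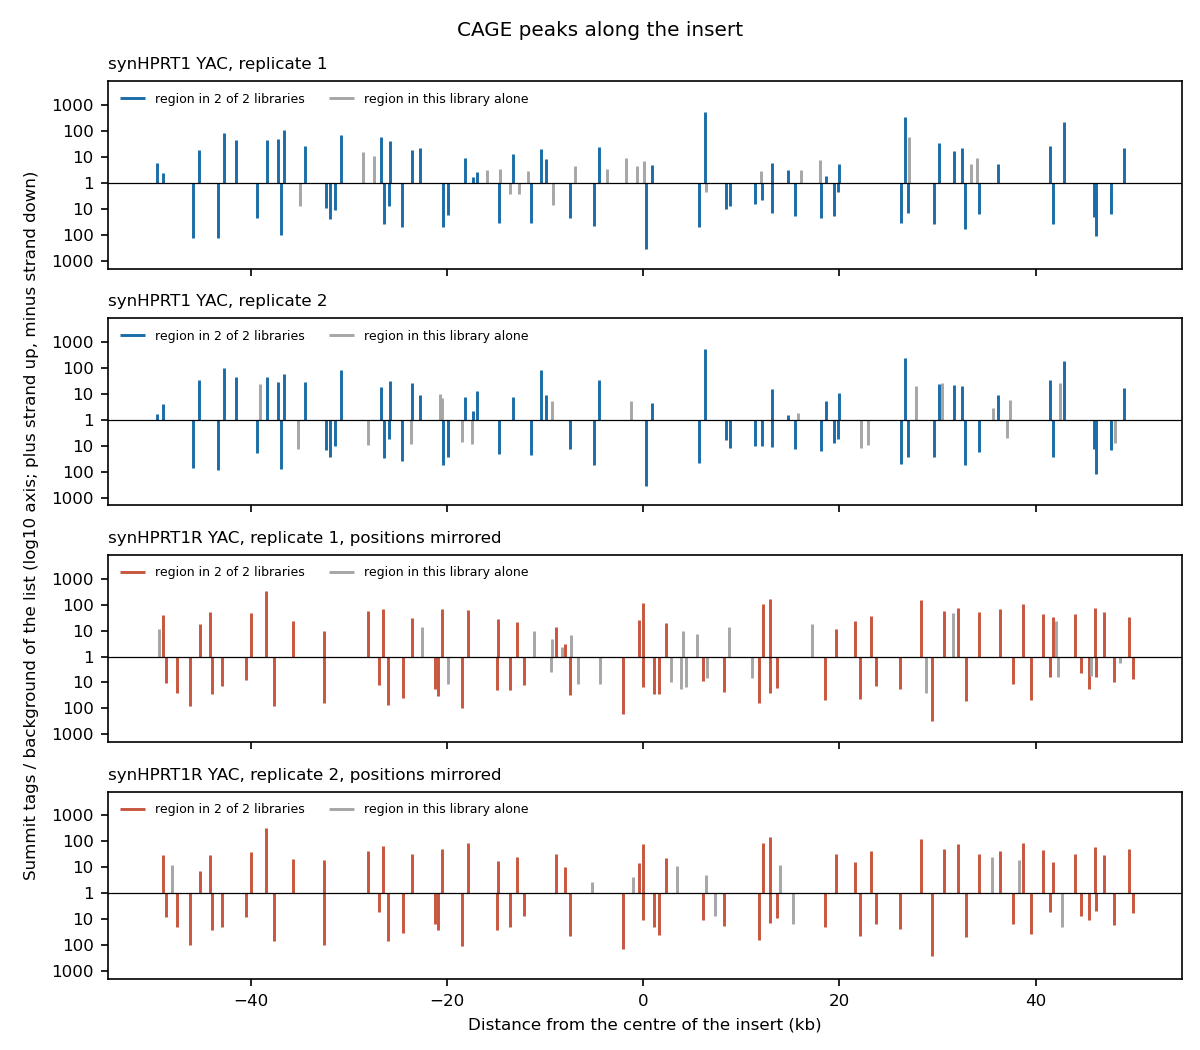
Insert peaks of the 4 YAC libraries by distance from the centre of the insert (kb), synHPRT1 above and synHPRT1R, with mirrored positions, below. Line height is summit tags over background on a log10 axis, plus strand up and minus strand down, and coloured lines are regions found in 2 of 2 libraries of the sequence. Replicates of a sequence share most lines, and the plus-strand region of synHPRT1 at 6 kb right of the centre, over 500 times background, has no match of that height in synHPRT1R.

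Plus and minus starts were placed alike along both sequences. The nearest minus-strand region upstream of a plus-strand region, the arrangement of a divergent promoter, lay at a median of 1195 bp on synHPRT1 and 1036 bp on synHPRT1R. Within 500 bp stood 6 of 35 plus-strand regions of synHPRT1 and 7 of 36 of synHPRT1R. These counts are a description, since regions of 1 molecule share their source.

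Among regions found in 2 of 2 libraries, few of one orientation had one of the other within 100 bp of the facing position. Position x of synHPRT1 faces 100578 minus x in synHPRT1R. Of the 71 synHPRT1 regions, 7 (9.86%, 95% exact interval 4.06% to 19.3%) had a synHPRT1R region with its summit within 100 bp at the mirrored position on the same strand. Stretches of that width around the synHPRT1R summits covered 7.70% of the insert. On the opposite strand the count was 4 (5.63%, interval 1.56% to 13.8%, coverage 7.69%). Without mirroring, 6 synHPRT1 regions (8.45%) had a partner on the same strand and 4 (5.63%) on the opposite one. Each interval included its covered share.

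Wider windows gave results that depended on the point measured. With summits within 250 bp, 20 synHPRT1 regions (28.2%, interval 18.1% to 40.1%) had a mirrored partner on the same strand and 19 (26.8%, interval 16.9% to 38.6%) on the opposite strand, where coverage was 19.1% for each. Without mirroring, 14 (19.7%) had a partner on either strand. All these intervals still included the covered share, again as a description and not a test. With 5′ edges in place of summits, the mirrored count within 100 bp was 7 of 71 on each strand. Within 250 bp it was 12 (16.9%) on the same strand, equal to the 12 without mirroring, and 20 (28.2%) on the opposite strand, against 17 without mirroring.

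Among the 7 same-strand mirrored pairs some folds were far apart and others close. The synHPRT1 plus-strand region with its summit at 11934 had a fold of 4.65 and 4.86, against 32.2 and 36.4 in its synHPRT1R partner at 88720, one of the 10 highest there. The synHPRT1 minus-strand region at 96478 had 23.2 and 26.9, against 3.68 and 2.26 in its partner at 4163. The plus-strand region at 26725 of synHPRT1, with 4.03 and 10.6, overlapped in fold with its synHPRT1R partner at 73811, with 5.14 and 5.77. Minus-strand regions at 25733 of synHPRT1, with 11.4 and 9.50, and at 74805 of synHPRT1R, with 8.76 and 8.17, were also close. The synHPRT1 plus-strand region at 56404 to 56745 had its nearest same-strand synHPRT1R region 117 bp from the mirrored summit, seen in 1 library with a fold of 3.68. Other named regions had nearer or stronger neighbours. The synHPRT1R plus-strand region at 50145 to 50410 had a same-strand synHPRT1 region 2.5 bp from its mirrored summit, seen in 1 library with a fold of 5.92. It also lay 207 bp from the synHPRT1 minus-strand region at 50346 to 50737, on the opposite strand.

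Overlap of whole peaks gave larger shares and, unlike summits within 100 bp, set mirrored same-strand positions apart from unmirrored ones. No covered share stands beside these values. Replicates of a sequence shared 79.9% of insert peaks on average (range 75.7% to 88.0%, by at least 1 bp). Between the sequences, mirrored peaks overlapped on the same strand for 39.5% (range 35.9% to 44.7% over 4 pairs of libraries, read from either side). On the opposite strand the mean was 33.5% (30.4% to 37.2%), and without mirroring 30.9% (28.2% to 32.6%). Every mirrored same-strand share lay above every unmirrored share and below every replicate share. Pairs of libraries share members and are not independent, so no test was made.

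**Figure D3:**
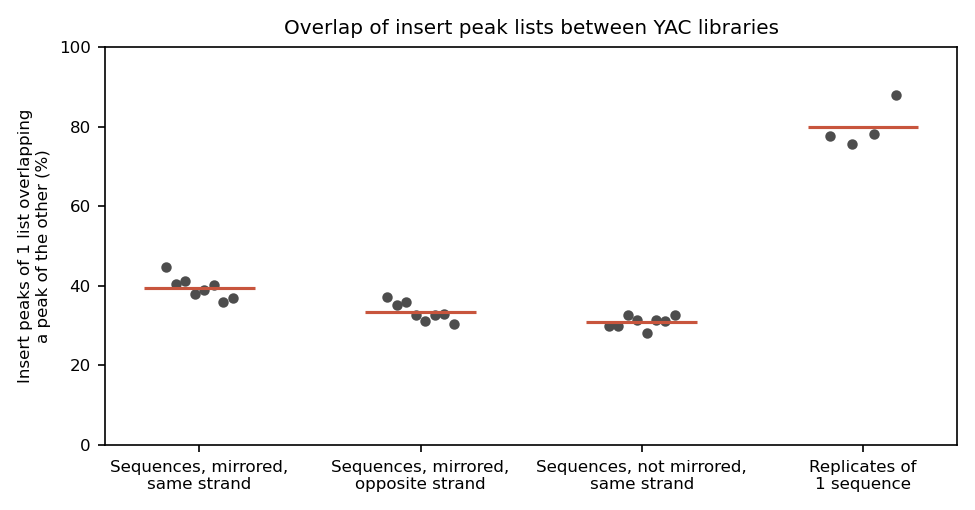
Percent of insert peaks of 1 list that overlap a peak of another by at least 1 bp, for pairs of YAC libraries of different sequence and for replicates (points, each pair read from either side; line, mean). Mirrored same-strand pairs average 39.5%, unmirrored pairs 30.9% and replicates 79.9%.

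On the vector, which is identical in the strains, 7 of 25 start regions were shared by all 4 libraries. The vector part, 13323 bp from the end of the insert to the end of the last listed peak, held 15 and 14 peaks in synHPRT1 libraries, against 15 and 10 in synHPRT1R libraries (difference 2, exact permutation p = 1, n = 2 each). The difference turned to -0.5 without synHPRT1R replicate 2. Peaks formed 25 regions, of which 7 were found in all 4 libraries and 14 in 1 library alone. In either direction, 0 (0.0%) were found in 2 of 2 libraries of one sequence and 0 of 2 of the other. Native genes separated in this way at 1.62% and 1.33%, so 0 of 25 shows nothing particular to the vector. Overlap between libraries of different sequence averaged 67.6% (57.1% to 100%), against 66.8% (53.3% to 90.0%) between replicates, in contrast to the insert.

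The 7 shared vector regions lay on both strands. A plus-strand region 556 to 857 bp beyond the insert had a fold of 17.8 and 20.0 in synHPRT1 libraries, against 20.7 and 18.0 in synHPRT1R libraries. A minus-strand vector region 9887 to 10683 bp beyond it had 30.0 and 13.6 in synHPRT1 libraries, against 23.4 and 28.6 in synHPRT1R libraries. The groups overlapped at both. At 2 plus-strand regions both synHPRT1 folds were lower: 19.3 and 16.0 in synHPRT1 libraries, against 23.7 and 22.0 in synHPRT1R libraries, at 6088 to 6553 bp, and 6.64 and 9.02 against 11.4 and 14.6 at 11621 to 12016 bp. At 10801 to 11021 bp both were higher, with 21.7 and 22.2 in synHPRT1 libraries against 14.6 and 20.3 in synHPRT1R libraries. The groups overlapped at the remaining 2 regions, both on the minus strand. Over the 7 regions the median log2 ratio of summit tags over background, synHPRT1 over synHPRT1R, was -0.29 (range -0.74 to 0.23), and 2 of 7 were higher in synHPRT1. The features that the vector annotation would place at these starts were not analysed here.

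**Figure D4:**
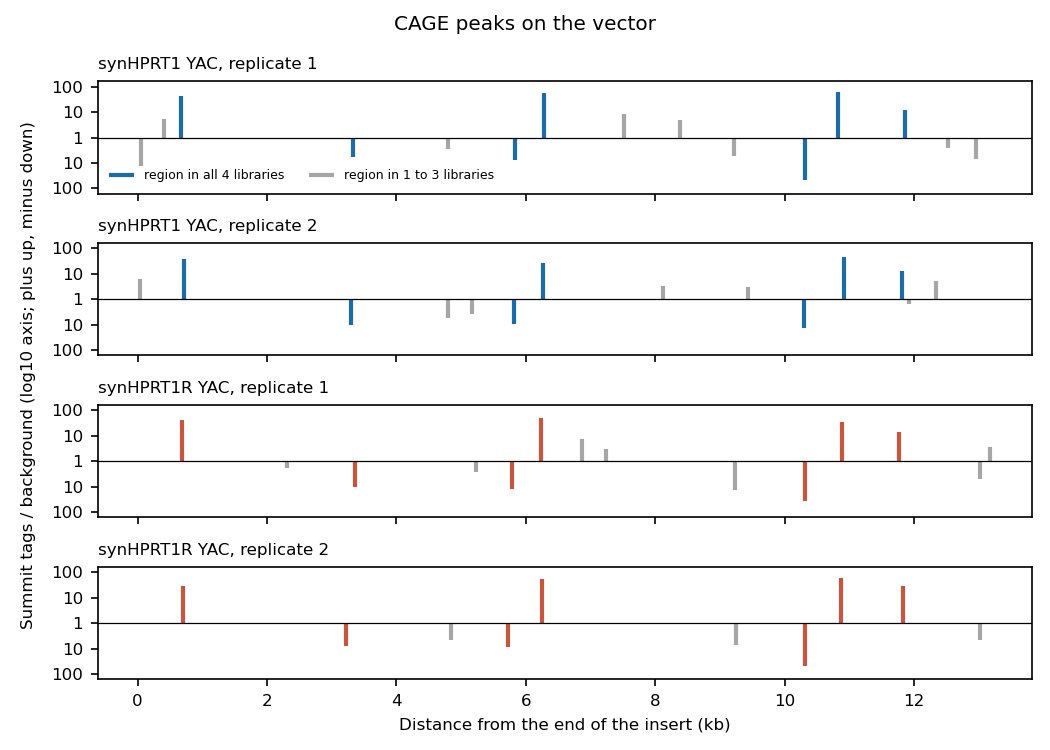
Vector peaks of the 4 YAC libraries by distance from the end of the insert (kb), with summit tags over background on a log10 axis, plus strand up and minus strand down. The 7 coloured regions are present in all 4 libraries, and the grey ones in 1 to 3.

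Native start peaks were similar in number beside either sequence. A gene counted as having a start peak if any same-strand peak touched the stretch between 300 bp upstream and 100 bp downstream of the annotated 5′ end. Of 6002 protein-coding genes, 2420 and 2418 had one in synHPRT1 libraries, against 2404 and 2462 in synHPRT1R libraries. All 4 libraries agreed on a start peak at 1514 genes (25.2%) and on its absence at 2554. A start peak in 2 of 2 synHPRT1 and 0 of 2 synHPRT1R libraries was found at 97 genes (1.62% of genes tested), and the reverse at 80 (1.33%).

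These separated genes were weakly called ones. Their median fold was 3.44 in either direction, against 11.3 for genes with a start peak in all 4 libraries. Within a group, 1084 genes had a start peak in 1 of 2 synHPRT1 libraries, against 1064 in 1 of 2 synHPRT1R libraries. That pattern asks nothing of the other group, so these counts are not like measures to the 97 and 80. Fisher's exact test per gene cannot go below p = 0.333 here, so 0 genes passed with Benjamini-Hochberg adjustment (the lowest adjusted p was 1), and 0 had p below 0.05 before it. Of the 97, the percentile of fold in the library where it was lower lay above the median of native peaks for 5 genes and below their 25th percentile for 61. Of the 80, these numbers were 3 and 45.

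The integrated strains give the same contrast in libraries that did not choose the genes. Of the 97 genes with a start peak beside synHPRT1 alone on the YAC, 4 (4.12%) separated the same way when integrated and 9 (9.28%) the opposite way. Over all genes, 1.32% separated toward synHPRT1 when integrated and 2.55% toward synHPRT1R. All genes include 2554 without a start peak in any YAC library, so these shares have a base unlike that of the separated genes. Of the 80 genes in the other direction, 7 (8.75%) separated the same way and 2 (2.5%) the opposite way. Moreover, 18 of the 97 and 12 of the 80 had a start peak in all 4 integrated libraries.

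Starts of the 11 genes that separated the same way in both locations included the following 4, the first 2 of each direction by percentile of fold. Each sequence is on the strand of the gene, with the 5′ edge of the peak after the first 120 bases, and is shown because these promoters carried a peak beside one orientation in every library and beside the other in none. Capitals mark TATAAA or TATATA, searched on both strands (TTTATA on the other), words of the TATA element that positions the polymerase at some yeast promoters.
TRI1, sacCer3 chrXIII:739048-739197, plus strand: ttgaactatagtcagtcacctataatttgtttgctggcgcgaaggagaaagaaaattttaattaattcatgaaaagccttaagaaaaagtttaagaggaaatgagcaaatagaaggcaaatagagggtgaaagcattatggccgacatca
AXL1, sacCer3 chrXVI:781878-782027, plus strand: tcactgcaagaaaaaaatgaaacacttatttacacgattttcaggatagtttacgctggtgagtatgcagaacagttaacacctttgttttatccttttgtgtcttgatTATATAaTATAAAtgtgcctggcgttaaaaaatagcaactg
PAF1, sacCer3 chrII:761095-761244, plus strand: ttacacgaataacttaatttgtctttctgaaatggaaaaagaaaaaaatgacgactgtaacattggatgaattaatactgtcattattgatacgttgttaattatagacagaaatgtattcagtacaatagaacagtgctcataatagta
PRP21, sacCer3 chrX:53180-53329, plus strand: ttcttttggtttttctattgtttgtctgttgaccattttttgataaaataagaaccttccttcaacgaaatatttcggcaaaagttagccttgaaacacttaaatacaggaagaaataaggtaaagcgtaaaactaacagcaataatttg

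Of these 4, AXL1 held such words, 2 of them, and the other 3 held none in this window. Of 3448 genes with a start peak in any YAC library, 1404 (40.7%) held at least 1 word in a window of the same length, as did 71 of the 177 separated genes (40.1%). A match is a description of letters and not a bound site.

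AXL1, a protease that matures the a-factor pheromone, had a fold of 5.24 and 3.53 in synHPRT1 libraries and no start peak in synHPRT1R libraries. TRI1 had 6.94 and 6.25, TRM13, a tRNA methyltransferase gene, 2.17 and 7.13, and TAX4 2.11 and 5.68, each in synHPRT1 libraries alone. When integrated, TRI1 had a fold of 3.37 and 12.4 in synHPRT1 libraries and again no start peak in synHPRT1R libraries.

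PAF1, which encodes a subunit of a transcription elongation complex, had a fold of 4.27 and 6.24 in synHPRT1R libraries and no start peak in synHPRT1 libraries. PRP21, of the spliceosome, had 8.26 and 3.12, and SFT1, a vesicle fusion protein gene, 1.55 and 7.55, in synHPRT1R libraries alone. REX4 had 4.64 and 2.76, GTT2, a glutathione transferase gene, 2.32 and 2.26, and SHS1, a septin gene, 1.83 and 2.05. RPS10A, a ribosomal protein gene with a close paralog that can share tags with it, had 1.62 and 2.43.

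**Figure D5:**
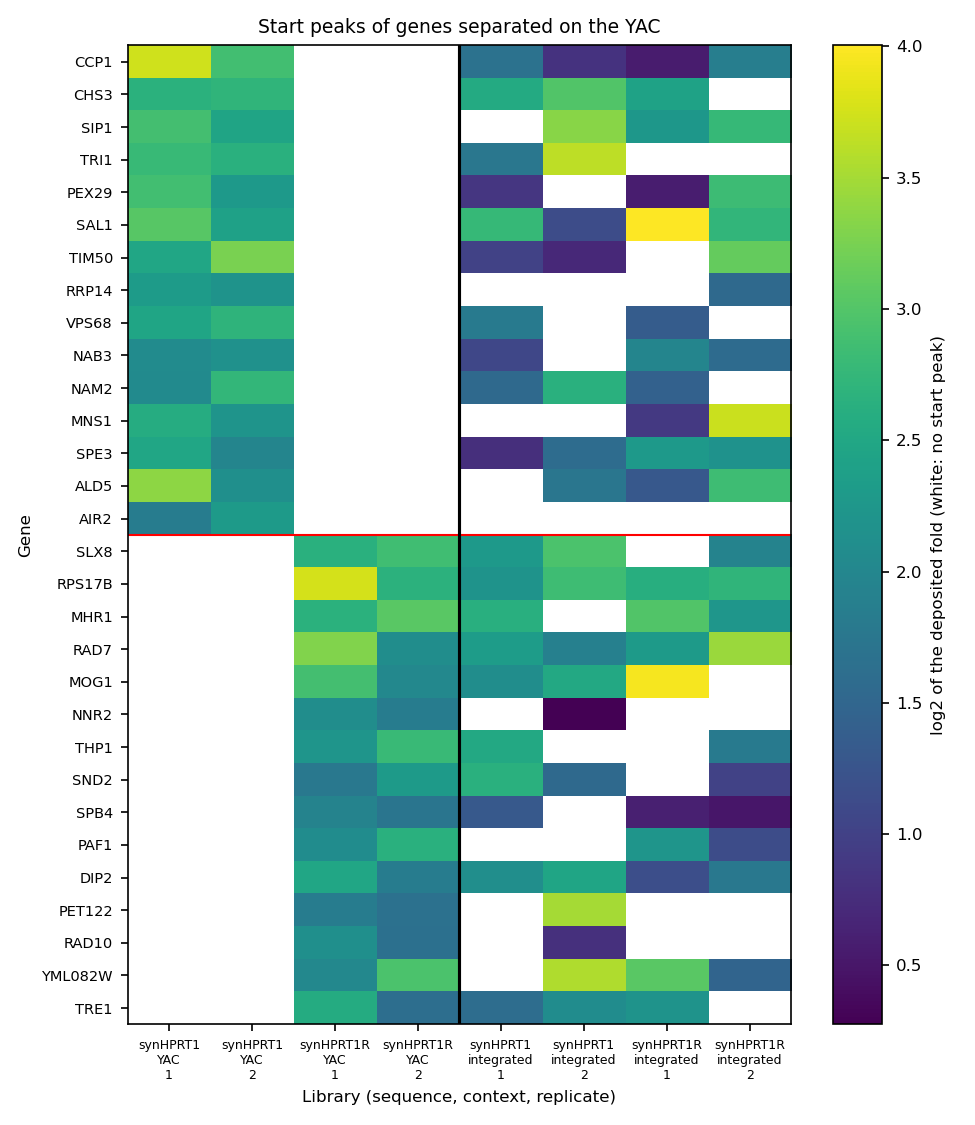
Deposited fold (log2) at the starts of the 30 named genes, 15 per direction, separated on the YAC (rows), in the 4 YAC libraries left of the black line, which chose them, and the 4 integrated libraries right of it. White cells have no start peak, and of these 30 TRI1 and PAF1 repeat their YAC pattern in the integrated libraries.

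The named genes of the 97, those of highest percentile in the library where it was lower, were of mixed function. CCP1, the mitochondrial cytochrome c peroxidase, had a fold of 13.4 and 7.36 in synHPRT1 libraries. CHS3, the main chitin synthase, had 6.32 and 6.54, and SIP1, a subunit of the Snf1 kinase, 7.42 and 5.48. None of the 3 had a start peak in a synHPRT1R library on the YAC, but all 3 had one in at least 1 integrated synHPRT1R library. Of genes for mitochondrial proteins, SAL1, a carrier, was listed with 8.22 and 5.32, TIM50, of protein import, with 5.61 and 9.56, NAM2, a leucyl-tRNA synthetase, with 4.16 and 6.69, and ALD5, an aldehyde dehydrogenase, with 10.3 and 4.40.

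The others named in that direction acted elsewhere in the cell. PEX29, of peroxisomes, had a fold of 7.35 and 4.86, and VPS68, of vacuolar sorting, 5.50 and 6.52. NAB3, an RNA-binding protein of transcription termination, had 4.21 and 4.49, and AIR2, of nuclear RNA surveillance, 3.59 and 4.95. RRP14, of ribosome biogenesis, had 5.02 and 4.55, SPE3, spermidine synthase, 5.58 and 3.91, and MNS1, an endoplasmic reticulum mannosidase, 6.01 and 4.62. AIR2 had no start peak in any integrated library.

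The named genes of the 80, ranked in the same way, were of mixed function too. SLX8, of a SUMO-targeted ubiquitin ligase, had a fold of 6.23 and 7.26 in synHPRT1R libraries, RAD7, of nucleotide excision repair, 9.86 and 4.31, and RAD10, a repair endonuclease subunit, 4.40 and 3.14. RPS17B, a ribosomal protein gene with a near-identical paralog that makes its peak uncertain, had 13.5 and 6.35. SPB4, a helicase of ribosome assembly, had 3.84 and 3.32, and DIP2, of the small subunit processome, 5.61 and 3.57. All 6 had no start peak in synHPRT1 libraries on the YAC and at least 1 in integrated synHPRT1 libraries.

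Further named genes of that direction were MHR1, of mitochondrial DNA recombination, with a fold of 6.28 and 8.27, PET122, a translational activator in mitochondria, with 3.59 and 3.16, and THP1, of mRNA export, with 248 and 293 summit tags. MOG1, of nuclear import, had 7.40 and 4.05, SND2, of protein targeting to the endoplasmic reticulum, 3.41 and 4.94, and NNR2, of nicotinamide nucleotide repair, 4.29 and 3.57. TRE1 had 5.96 and 3.07, and YML082W 4.04 and 7.72. PET122 and NNR2 had a start peak in 1 integrated library, of synHPRT1 in both cases, opposite to their pattern on the YAC.

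Members of the pathway lists separated the sequences about as often as genes in general. Over 23 lists of 513 distinct genes, 8 genes (1.56%) separated toward synHPRT1 and 8 (1.56%) toward synHPRT1R, against 1.62% and 1.33% of all genes, and 14 lists had none in either direction. The lists of leucine, arginine, aromatic and sulfur amino acid synthesis, purine synthesis, glycolysis, ergosterol synthesis, the proteasome, the respiratory chain and chromosome and plasmid maintenance were among those with none. Of 30 genes of chromosome and plasmid maintenance, 8 and 10 had a start peak in synHPRT1 libraries, against 9 and 9 in synHPRT1R libraries. Of 12 genes of leucine and branched-chain synthesis, which SC-Leu medium calls on, 9 and 9 had one in synHPRT1 libraries, against 9 and 11 in synHPRT1R libraries. The groups overlapped or met in both.

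The 16 list members that did separate were scattered. Toward synHPRT1 they were PHO3, a thiamine-repressible phosphatase gene (fold 2.30 and 3.71), VHT1, the biotin transporter (6.84 and 2.44), RGT2, a glucose sensor (3.44 and 1.67), HIP1, a histidine permease (4.89 and 3.80), ERB1, of ribosome biogenesis (4.76 and 1.92), GAL11, of the Mediator complex (3.48 and 2.99), and CHS3 and AXL1 above. Toward synHPRT1R they were RPS10A, REX4, PAF1, PRP21 and SHS1 above, and NOC3, of ribosome biogenesis (fold 1.97 and 4.23), PRP18, a splicing factor (3.00 and 1.48), and HSP82, an Hsp90 chaperone gene with a near-identical paralog (2.57 and 10.7). Pre-mRNA splicing, with PRP18 and PRP21, and ribosome biogenesis, with NOC3 and REX4, each had 2 members toward synHPRT1R, of 24 and 32 members, against a background of 1.33%. The vitamin list, with PHO3 and VHT1, and the cell wall list, with CHS3 and AXL1, each had 2 toward synHPRT1, of 27 and 29 members, against 1.62%. With counts this small nothing particular to these lists is shown.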

How the data were processed

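CAGE peak lists of 8 yeast libraries were used, 4 lists per library, 32 in all, of which 24 were read. The submitters' processing notes name MACS2 2.1.0, deepTools 3.5.0, SAMtools 1.9, Bowtie2 2.2.9, bcl2fastq 2.20 and the build sacCer3, with no role for any tool. Peaks were listed per library and strand. The fold that the authors deposited is the summit-to-background ratio. The authors' deposited −log10 values are of the p-value and the q-value (lowest −log10 q 1.31). The deposited score was not used, and the deposited summit offset gave positions. Fold, p and q are the authors' own and belong to the peak. Summit tags were solved from fold and p under a Poisson model and came out whole within 0.1 for 98.6% to 98.9% of peaks. The insert of 100578 bp was placed by matching peaks between the references. Genes were the 6002 protein-coding ones of the RefSeq annotation of the same build.

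Members, lists and rules were chosen with earlier results of these data known. Named insert regions were the 10 per sequence with the highest percentile of fold, among native peaks of the same list, in the library where it was lower. Named genes were the 15 per direction ranked likewise, every separated list member and those that separated the same way when integrated. Group values were compared by exact permutation of library labels, and genes by Fisher's exact test. Alternatives covered the q threshold, list length, covered bases, the reference, the gene-start stretch and the tolerance for mirrored positions. They also covered each library left out, a replicate block, 5′ edges and the scale of peak height. Peak height as a measure, its scales and the 5′ edges were chosen after seeing the data. Functions were tested on simulated data. Python 3.11.15 was used with NumPy 2.4.6, pandas 2.3.3, SciPy 1.17.1 and Matplotlib 3.10.9.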

Additional observations from a re-analysis of the deposited data

Results flagged for a closer look

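Median summit tags of insert peaks over background were lower for synHPRT1 than for synHPRT1R on the YAC (difference -7.00) and higher when integrated (difference 1.31), so that the contrast differed between locations by -8.31 (exact permutation p = 0.0556, the smallest that 36 arrangements give). The median insert peak stood higher over background in each YAC library than in any of the 4 integrated libraries. Native peaks also stood higher for synHPRT1 when integrated (difference in medians 0.509, no overlap), and the -8.31 is not adjusted for this. The measure of peak height was chosen after seeing the data.

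Separation was opposite in the 2 locations at 11 genes, and the same at 11. The difference between locations was not tested for them. A start peak beside synHPRT1 alone on the YAC and beside synHPRT1R alone when integrated was found at 9 genes. They are 9.28% of the 97, against 2.55% of all genes that separated toward synHPRT1R when integrated. The 9 were SAS4, SYF2, MAS2, MNS1, FCF2, AVO2, GAL11, VPS5 and MED4. GAL11 and MED4 encode subunits of Mediator. The reverse was found at 2 genes, EKI1 and MNN5, which are 2.5% of the 80, against 1.32% of all genes. All genes include 2554 without a start peak in any YAC library, and the separated ones were weakly called. The shares thus have unlike bases and show no enrichment.

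Mitochondrial DNA, which no comparison used, held 5 and 5 peaks in synHPRT1 libraries, against 4 in synHPRT1R replicate 1 and 3 in replicate 2.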

How the results depend on the processing

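Of 58 alternative values, 44 kept the direction and side of the threshold, stayed inside the exact interval of a share, or stayed within 1.5 times of a count. The side of the threshold was fixed in advance, since no p among them could go below 0.05. The difference in insert density was -0.0513 and turned to 0.0505 without synHPRT1R replicate 1 (range with each library left out, -0.153 to 0.0505), and that in vector peaks, 2, turned to -0.5 without synHPRT1R replicate 2 (range -0.5 to 4.5). The plus-strand difference was 2.79 to 7.02 points with each library left out. The difference in median peak height was -7.43 to -6.57 with each library left out and turned to 0.0249 when divided by the shared vector regions. Mirrored shares were 28.2% on the same strand and 26.8% on the opposite strand within 250 bp, where a wider window takes in more regions. With each library left out, where 1 library stands for its group, 217 to 290 genes separated toward synHPRT1, against 97, and 229 to 292 toward synHPRT1R, against 80. At a −log10 q of at least 10, 90 and 84 genes separated, of which 75 and 56 were shared with the 97 and 80, and 6 genes in place of 11 separated in opposite directions by location. The labels tie same-numbered libraries by a number alone, and the correlation of their deviations was 0.0214 over 6002 genes. The background was nevertheless higher in replicate 1 than in replicate 2 of both sequences, on both strands. With the replicate block the density difference was -0.0513 (exact sign-flip p = 1) and the height difference -7.00 (exact sign-flip p = 0.5). The block could change no call, since neither test can go below 0.05 with 2 libraries per group. Causes of these shifts were not tested. Depth is unknown as a count, and a gene without a listed peak may still be transcribed below the background of its list.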
